A study of Mus musculus with 18 samples.

Results

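The mRNA left in macrophages with and without tristetraprolin was compared 90 min after transcription had been stopped. Tristetraprolin (TTP, encoded by Zfp36) is a zinc finger protein that binds AU-rich elements in the 3' ends of short-lived mRNAs, many of them for cytokines, and recruits deadenylases that start their degradation. In macrophages exposed to lipopolysaccharide (LPS), a bacterial cell wall component, TTP is itself induced and limits the output of inflammatory mRNAs. Phosphorylation downstream of the kinase p38 MAPK holds this activity back.

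The comparison used 6 of the 18 arrays of the series: 3 of WT cells and 3 of TTP-/- cells (KO below) at 90 min. The cells were macrophages differentiated with M-CSF from bone marrow of C57Bl/6 mice, and the labels list their cell type as bone marrow cells. WT and KO cells alike had received LPS for 3 h and then fresh medium with actinomycin D, which blocks transcription, and SB203580, a p38 MAPK inhibitor, for 90 min. The question, as the series states it, was which mRNAs remain at higher levels when TTP is missing and p38 activity is blocked. Cells without the inhibitor were not analysed here, so the time without transcription was also the time with the inhibitor. The KO cells lacked TTP during differentiation and LPS exposure too, and the 0 min arrays, 3 a genotype, are therefore given beside the 90 min values. The labels number the replicates 1 to 3 in each group without naming separate animals or cultures. The p-values below therefore speak only of the spread among these arrays, and that spread may be technical.

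Total RNA was measured on the Mouse Gene ST 1.0 array of Affymetrix, and a level below is the log2 of the deposited intensity after robust multiarray averaging (RMA). Of 19454 named genes, 10258 were tested, those whose highest mean among the 6 groups reached the limit of 3.03. A gene could thus enter through a single group, also through KO at 90 min. The arrays are relative measures: a level says how much of an mRNA there was among all RNA hybridised, so an mRNA that decays at the average rate keeps its signal. Within a 90 min group, the arrays correlated across genes at 0.940 to 0.987. The number of arrays, 3 a group, limits the precision of each value. Of 9 macrophage markers 8 were on the array, and all 8 were above the limit at 90 min, with summed intensities of 9358 to 12270 in WT and 10719 to 13183 in KO. No marker of T or NK cells, mast cells or erythroid cells was above it. Of 8 fibroblast or stromal markers 5 were above it, with the list at 78.3 to 103.7 in WT and 73.9 to 94.8 in KO. Of 6 osteoclast markers 4 were, with 91.1 to 184.8 in WT and 124.0 to 150.7 in KO. Of 7 dendritic cell markers 1 was above the limit, as was 1 of 7 listed B cell markers. Of 10 neutrophil markers 2 were above the limit, with the whole list at 72.6 to 90.6 in WT and 80.9 to 89.7 in KO, and Ly6g, Mpo and Elane were below it.

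One array stood apart among short-lived mRNAs. A set of 47 genes whose mRNA had fallen by 45 min was chosen on the 0 and 45 min arrays alone, and in 43 of them KO replicate 2 had the highest 90 min signal of the 3 KO arrays. Its median level over these genes was 0.79 above the mean of the other KO arrays, against 0.05 over all genes tested. It was also the highest KO array for 11 of the 15 genes called below. The part of this array in the results was not tested other than by leaving it out, and differences without it are given below for the called genes.

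At 90 min, 15 genes were higher in KO than in WT (limma, adjusted p below 0.05), 0.146% of those tested, and none was lower (0%). At an unadjusted p below 0.05 there were 416 higher and 177 lower. The 15 were headed by Tnf, Cxcl1 and Cxcl2 and held genes of 3 further signalling proteins (Tnfsf9, Edn1 and Il23a), the receptor Il10ra, the early response gene Ier3, the kinase Pim1 and the protease Plau. The other 5 were Mllt11, B4galt3, Eno2, Plxna2 and Tmem199. In all 15 the KO arrays lay above the WT arrays without overlap. The 15 were called on these same arrays, so this separation adds no support. Over all genes tested, the KO arrays lay above without overlap in 6.47% and below in 3.25%. Fewer cells of a type and less RNA per cell cannot be told apart in such bulk samples.

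In a fit that also held the replicate number as a block, 73 genes were higher (0.712%) and 7 were lower (0.0682%), and these 80 included all 15. Without KO replicate 2, the analysis with no block called 3 genes, Tnf, Cxcl1 and Cxcl2. It called 5 without KO replicate 1 and 6 without WT replicate 1. With the block and without KO replicate 2, 17 genes were higher and 2 were lower, and 9 of the 15 remained called.

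**Figure D1:**
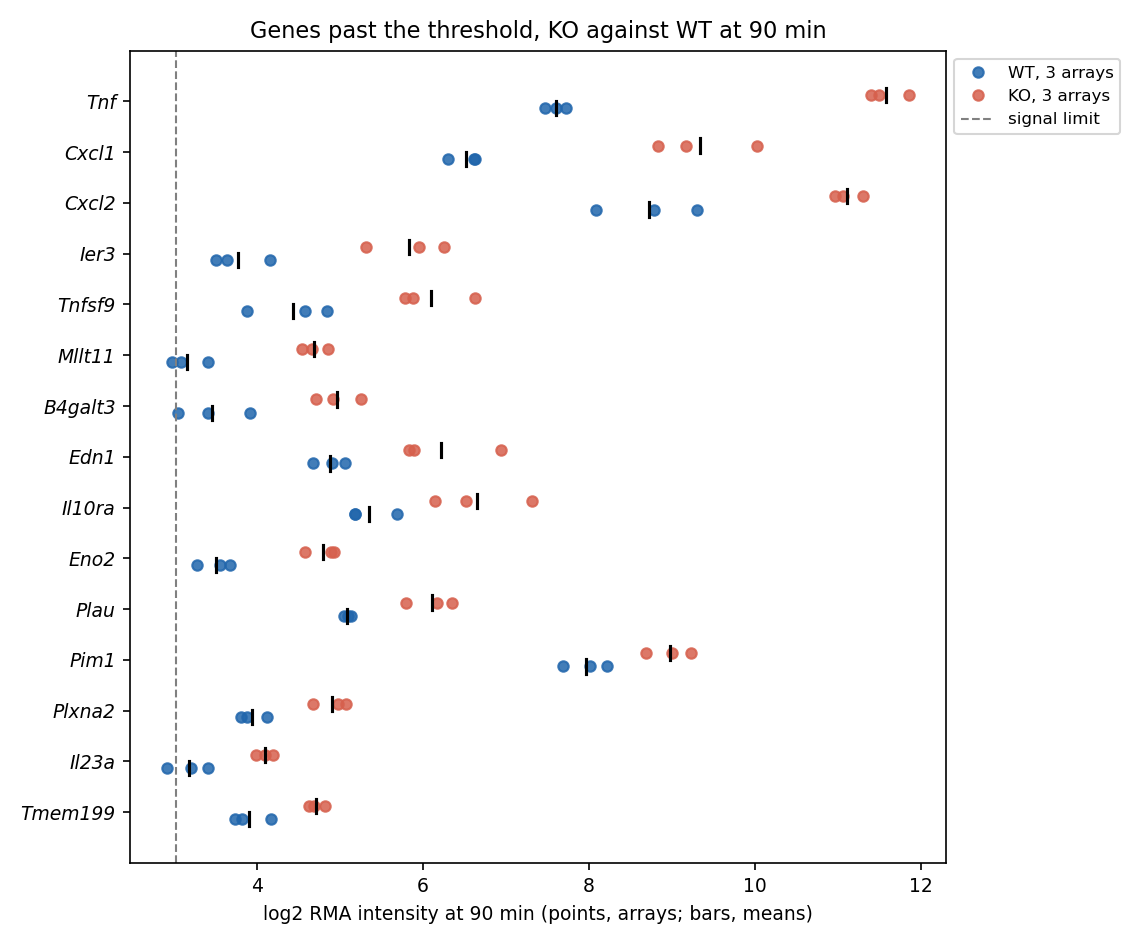
Level of the 15 genes that were higher in KO at 90 min, as log2 RMA intensity, with a point for each of the 3 WT and 3 KO arrays, a bar at each group mean and a dashed line at the signal limit of 3.03. The KO points lie to the right of the WT points for every gene, with the widest gap for Tnf.

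**Figure D2:**
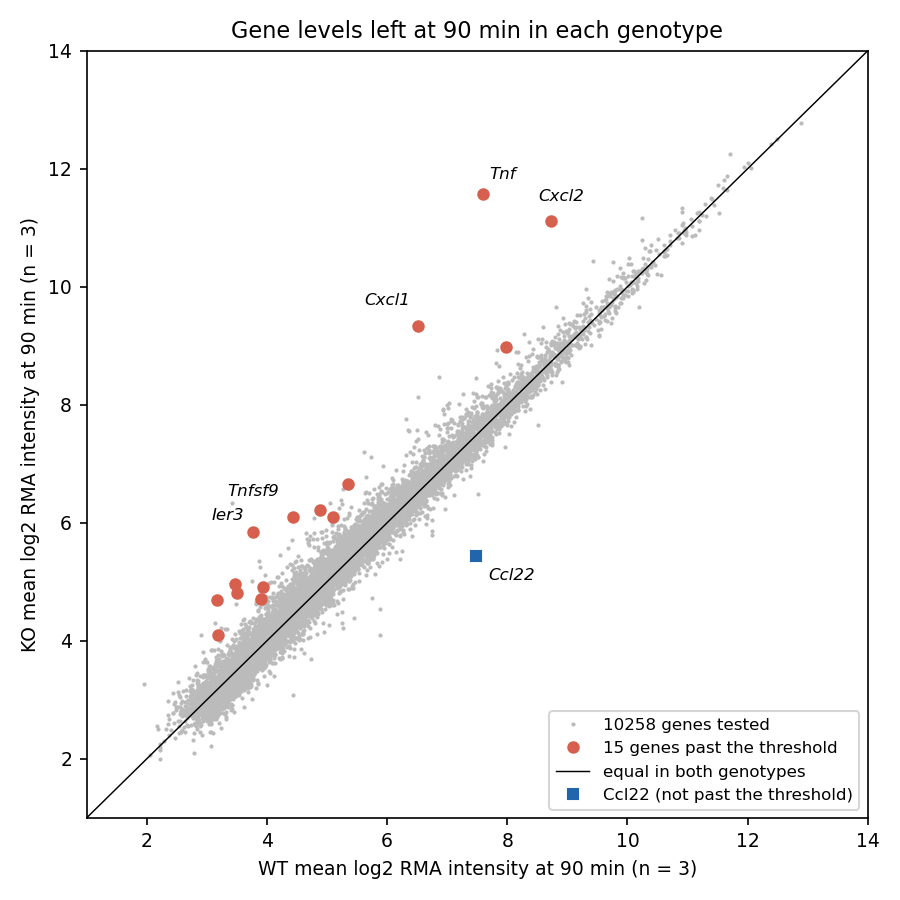
Mean log2 RMA intensity at 90 min in KO (y axis) against WT (x axis) for the 10258 genes tested, n = 3 arrays each, with the line of equal level. Most genes lie near the line, the 15 higher genes lie above it with Tnf the farthest, and Ccl22, which did not pass the threshold, lies below it.

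Zfp36, the gene that encodes TTP, was examined first. Its level in the 90 min arrays was 4.11, 4.10 and 4.15 in WT and 4.58, 5.97 and 4.42 in KO (replicates 1, 2 and 3, in that order here and below). At 0 min the arrays read 7.95, 7.86 and 7.12 in WT and 6.25, 6.75 and 6.81 in KO. The KO arrays were thus below the WT arrays at 0 min and above them at 90 min, and neither difference passed the threshold: -1.04 ± 0.32 (SE) at 0 min with a limma adjusted p of 0.564, and 0.87 ± 0.32 at 90 min with 0.673. The sources used here do not say which part of Zfp36 was deleted, so its signal in KO does not check the labels.

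Tnf, which encodes the inflammatory cytokine tumour necrosis factor, carried the largest difference of the genes tested. Its 90 min level was 7.72, 7.61 and 7.47 in WT and 11.49, 11.85 and 11.40 in KO. Both groups were tight and lay far apart: the difference was 3.98 ± 0.18 (SE), a 15.8-fold higher level in KO (95% interval 12.1 to 20.6), with a limma adjusted p of 6.06e-10. At 0 min the arrays had read 11.77, 11.90 and 11.84 in WT and 11.94, 12.04 and 12.10 in KO, a difference of 0.19 ± 0.18 that did not pass (adjusted p = 0.838). Of the 0 min signal, 5.31% was left in WT (95% interval 4.07 to 6.92) and 73.4% in KO (56.3 to 95.7). The difference at 90 min exceeded that at 0 min by 3.79 ± 0.26, with a limma adjusted p of 3.76e-07.

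Cxcl1 and Cxcl2 encode chemokines that attract neutrophils. Cxcl1 read 6.62, 6.62 and 6.30 in WT and 9.16, 8.84 and 10.03 in KO at 90 min. Its KO arrays were 2.83 ± 0.35 higher, which is 7.10-fold (95% interval 4.25 to 11.8), with an adjusted p of 0.00108. At 0 min WT had 9.08, 9.0 and 9.93 and KO had 9.35, 9.12 and 10.11, so the groups overlapped there and differed by 0.19. What was left of Cxcl1 at 90 min was 14.2% in WT (8.48 to 23.6) and 88.0% in KO (52.7 to 147).

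For Cxcl2, the 90 min arrays read 8.79, 9.31 and 8.08 in WT and 11.06, 11.30 and 10.97 in KO. The gap of 2.38 ± 0.23 corresponds to 5.22-fold (95% interval 3.71 to 7.34), with an adjusted p of 5.57e-05. WT kept 25.3% of its 0 min signal (18 to 35.6) and KO 108% (76.7 to 152). The genotype difference at 90 min exceeded that at 0 min by 2.09 ± 0.33 (adjusted p = 0.0375), and Tnf and Cxcl2 were the only genes of those tested for which this difference of differences passed, 0.0195% of them. Leaving out each of the 18 arrays in turn, it passed for Tnf every time and for Cxcl2 in 3 of the 18, with adjusted p up to 0.153. For Cxcl1 it was 2.64 ± 0.50 with an adjusted p of 0.190.

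Cxcl3, which encodes a further neutrophil-attracting chemokine of the family, had 8.90, 9.02 and 9.27 in WT and 8.64, 8.59 and 9.32 in KO. These arrays overlapped, and the difference was -0.21 ± 0.28 with an adjusted p of 0.958. WT still had 92.1% of its 0 min Cxcl3 signal and KO 128%.

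Cxcl1 and Cxcl2, with Ier3 of the genes described next, were the 3 called genes whose promoter window held a match to the NF-kB consensus, the sequence bound by the transcription factor that LPS activates. The 30-base windows around the matches are shown because NF-kB drives transcription of such chemokine genes after LPS, with the 10 matching bases in capitals.
Cxcl1: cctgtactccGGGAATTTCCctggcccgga
Cxcl2: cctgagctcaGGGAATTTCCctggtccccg
Ier3: gccgggccggGGGGAACTCCgcccttcgca
The windows lie at chr5:90891164-90891193 and chr5:90903792-90903821 for the chemokine genes and at chr17:35821611-35821640 for Ier3, in GRCm38.p6, from RefSeq promoter sequences. All 3 lie before the annotated start of the gene: the match begins 71 bases before it in Cxcl1, 97 in Cxcl2 and 92 in Ier3. The chemokine sequences shown are on the strand of the gene, and the Ier3 sequence is on the opposite strand. Both chemokine genes also held an overlapping match on the opposite strand, 70 bases before the start in Cxcl1 and 96 in Cxcl2. Both strands were searched from 250 bases before to 50 after the start, and 11 of the 15 called genes had such a window. A match was present in 6.59% of the 8360 tested genes with a window and in 5.14% of all 27025 genes with one. A match is a description of the letters and does not show binding.

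Ier3, an early response gene that regulates survival and MAP kinase signalling, read 3.65, 3.51 and 4.16 in WT and 5.31, 6.26 and 5.95 in KO. The KO level was 2.07 ± 0.38 higher, or 4.19-fold (2.39 to 7.36), with an adjusted p of 0.0424. At 0 min the KO arrays were also above the WT arrays, by 1.18 ± 0.38, which did not pass (adjusted p = 0.633). WT retained 21.6% of its Ier3 signal and KO 40.0%. Without KO replicate 2 the difference at 90 min was 1.86 (adjusted p = 0.290, and 0.0242 with the block).

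Among other secreted or membrane-bound signals, Tnfsf9 encodes the ligand of the costimulatory receptor 4-1BB. Its arrays read 3.89, 4.58 and 4.84 in WT and 5.89, 6.63 and 5.79 in KO, a difference of 1.66 ± 0.31 or 3.17-fold (2.01 to 5.0) with an adjusted p of 0.0429. The WT share left was 11.7% and the KO share 38.3%, from 0 min levels that differed by -0.05. The Tnfsf9 difference without KO replicate 2 was 1.40 (adjusted p = 0.309, and 0.0867 with the block). Edn1, which encodes the vasoconstrictor endothelin-1, stood at 4.68, 5.06 and 4.91 in WT and 5.90, 6.94 and 5.83 in KO (1.34 ± 0.26, adjusted p = 0.0465). It was among the mRNAs with least left in both genotypes, 14.5% in WT and 30.3% in KO. Its difference without KO replicate 2 was 0.98 (adjusted p = 0.248, and 0.0896 with the block). Il23a, which encodes the p19 subunit of interleukin-23, was low in WT at 2.93, 3.42 and 3.21 and read 3.99, 4.10 and 4.20 in KO, 0.91 ± 0.16 higher with an adjusted p of 0.0308. The WT arrays were thus near the signal limit, and the groups did not overlap. The Il23a difference stayed at 0.91 without KO replicate 2, with an adjusted p of 0.137 and, with the block, of 0.0445.

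Plau encodes urokinase, a protease that activates plasminogen. It read 5.05, 5.14 and 5.09 in WT and 6.17, 6.36 and 5.79 in KO, 1.01 ± 0.15 higher (2.02-fold, adjusted p = 0.00722). Pim1, a kinase gene that promotes survival and growth, read 8.01, 7.69 and 8.21 in WT and 8.69, 9.22 and 8.99 in KO, 1.00 ± 0.18 higher (2.00-fold, 1.54 to 2.59, adjusted p = 0.0314). Neither gene differed by more than 0.15 in the means at 0 min. The share of signal left was 47.3% in WT and 86.2% in KO for Plau, and 42.3% and 84.3% for Pim1. Without KO replicate 2 the difference was 0.89 for Plau (adjusted p = 0.0778, and 0.0198 with the block) and 0.87 for Pim1 (0.248, and 0.0993 with the block).

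The remaining called genes are not known as inflammatory signals, and several were dim. Mllt11 read 3.42, 3.09 and 2.98 in WT and 4.86, 4.67 and 4.54 in KO (1.53 ± 0.23, adjusted p = 0.00722). B4galt3, a galactosyltransferase gene, read 3.92, 3.06 and 3.42 in WT and 4.92, 5.25 and 4.72 in KO (1.5 ± 0.21, adjusted p = 0.0054). Eno2, the gene of neuron-specific enolase, read 3.56, 3.28 and 3.68 in WT and 4.93, 4.90 and 4.58 in KO (1.30 ± 0.20, adjusted p = 0.00722). These 3 groups of arrays were well separated, but the WT levels lay close to the signal limit. Plxna2, a semaphorin coreceptor gene, differed by 0.97 ± 0.18 with an adjusted p of 0.0363, and Tmem199, a gene of the proton pump's assembly, by 0.81 ± 0.15 with 0.0465. In 7 of the 15 called genes the WT mean was within 1 of the limit. Without KO replicate 2, Mllt11 differed by 1.54, B4galt3 by 1.35 and Eno2 by 1.25. Their adjusted p-values were then 0.0517, 0.0517 and 0.0641, and all 3 were called with the block. Plxna2 (0.89) and Tmem199 (0.76) had adjusted p = 0.25 and 0.296, and were not called with the block either.

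**Figure D3:**
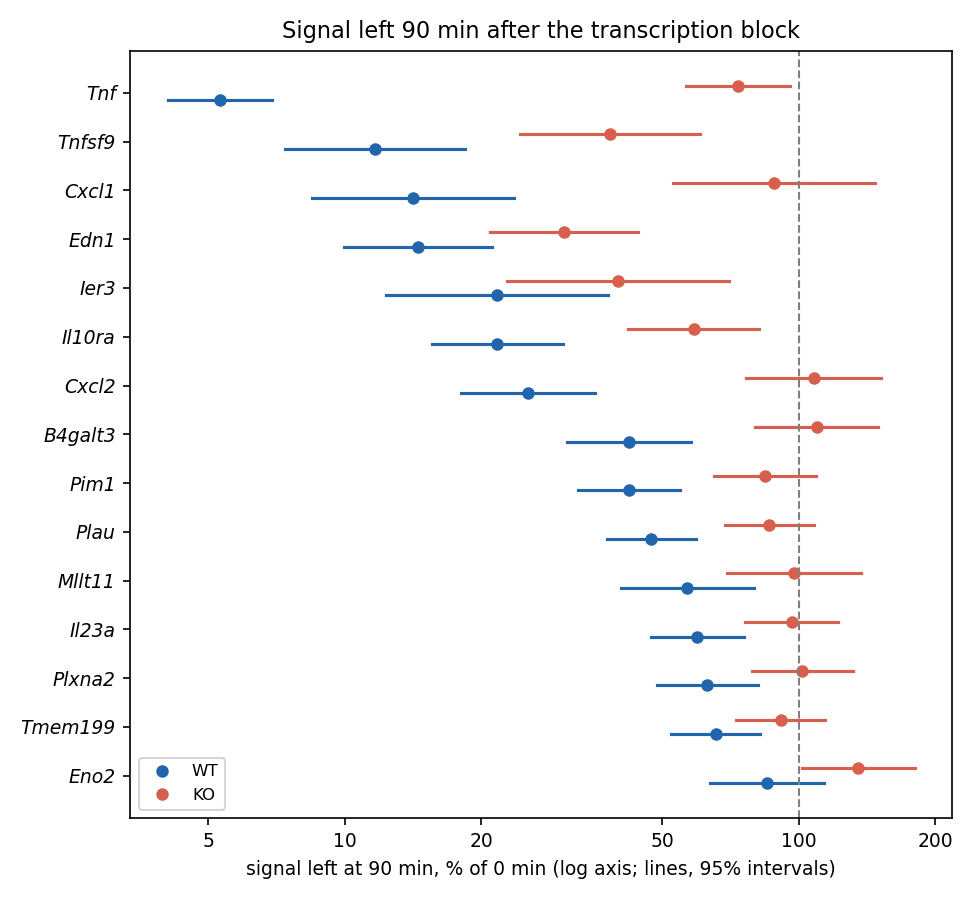
Signal left at 90 min as a percentage of the 0 min signal, on a log axis, for WT and KO in each of the 15 genes that were higher in KO at 90 min; points are estimates from 3 arrays at each time and lines are 95% intervals. The WT values run from 5.31% for Tnf to 85.1% for Eno2, and the KO values lie to the right of them.

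For the 15 called genes, less than 50% of the 0 min signal was left in 10 in WT and in 3 in KO. The 15 were called on the 90 min levels that also enter these shares, so a lower share in WT is partly built in. These shares are relative to the average mRNA, whose median over all genes tested was 98.9% in WT and 101% in KO. At 0 min no gene passed the test between genotypes, with 387 higher and 390 lower in KO at an unadjusted p below 0.05. That count rested on WT replicate 3 of 0 min: without this array 738 genes were higher in KO and 77 were lower at 0 min, none of them among the 15. The 0 min difference was positive in 13 of the 15, and 4 of them had an unadjusted p below 0.05 there (Ier3, Mllt11, Eno2 and Tmem199). With the replicate block, none of the 15 was called at 0 min. For the 13 genes other than Tnf and Cxcl2, the 90 min difference was not shown to differ from that at 0 min.

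A list of mRNAs reported elsewhere as TTP targets had 35 members, of which 33 were on the array and 28 were tested. The list was chosen with earlier results of these data known, so its values are a description and not independent support. Of these 28, 8 were higher in KO and none was lower, where 0.146% of all genes tested were higher. Tnf, Cxcl1, Cxcl2, Ier3, Mllt11, Plau, Pim1 and Il23a were the members called. The median difference was 0.82 against 0.04 over all genes tested, and 26 of the 28 members had a positive difference (92.9%, against 57.5% of all genes). In 16 members the KO arrays lay above the WT arrays without overlap, against 6.47% of all genes tested, and in none did they lie below. At 0 min the median of the list was 0.14. The median share left was 47.3% in WT and 87.1% in KO.

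With the replicate block, 12 members of the list were called, the added ones being Il10, Plaur, Ptgs2 and Ccl2. Ptgs2, which encodes the inducible prostaglandin synthase, read 10.13, 10.26 and 10.32 in WT and 10.88, 11.00 and 11.61 in KO (0.93 ± 0.31). Its groups did not overlap, and the adjusted p was 0.590 without the block and 0.0263 with it. Ccl2, the gene of a monocyte-attracting chemokine, read 8.34, 8.59 and 6.53 in WT and 9.0, 9.17 and 8.60 in KO (1.10 ± 0.44, adjusted p = 0.729, and 0.0314 with the block). Plaur, which encodes the urokinase receptor, differed by 0.76 ± 0.19, with adjusted p = 0.226 and 0.0253 with the block. This gene also lies within 10 Mb of Zfp36. With the block and without KO replicate 2, 8 members were called. Il10 was the only added one among them: Ptgs2 (0.91, adjusted p = 0.145), Ccl2 (1.19, 0.102) and Plaur (0.71, 0.15) were not called, nor was Pim1.

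Other members did not pass in either analysis. Ccl3, another chemokine gene, read 11.74, 11.81 and 11.55 in WT and 12.12, 12.34 and 12.31 in KO (0.56 ± 0.13, adjusted p = 0.149). The gene of the cytokine interleukin-6, Il6, had 7.38, 7.97 and 5.64 in WT and 8.0, 7.95 and 6.84 in KO, groups that overlapped (0.60 ± 0.54). Dusp1, the gene of a phosphatase that switches off p38, read 3.78, 3.22 and 4.67 in WT and 4.60, 5.92 and 5.23 in KO (1.36 ± 0.67). Csf2, which encodes GM-CSF, was near the limit in both genotypes at 90 min (0.33 ± 0.32). Its 0 min levels were 5.76, 6.01 and 4.74 in WT and 5.10, 4.70 and 3.80 in KO. Il1a, Il1b and Birc3 differed by 0.73 ± 0.35, 0.55 ± 0.32 and 0.50 ± 0.20 at 90 min (limma adjusted p = 0.868, 0.895 and 0.744). The Il1a groups overlapped, while the KO arrays of Il1b and Birc3 lay above the WT arrays. Fos, Vegfa and Myc differed by 0.19, 0.16 and 0.01. Every 90 min array of Myc was below the signal limit, so its value does not show equal levels, and Fos was near the limit in both genotypes. The members with a negative difference were Cxcl3 (-0.21) and Ccnd1 (-0.23 ± 0.21).

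**Figure D4:**
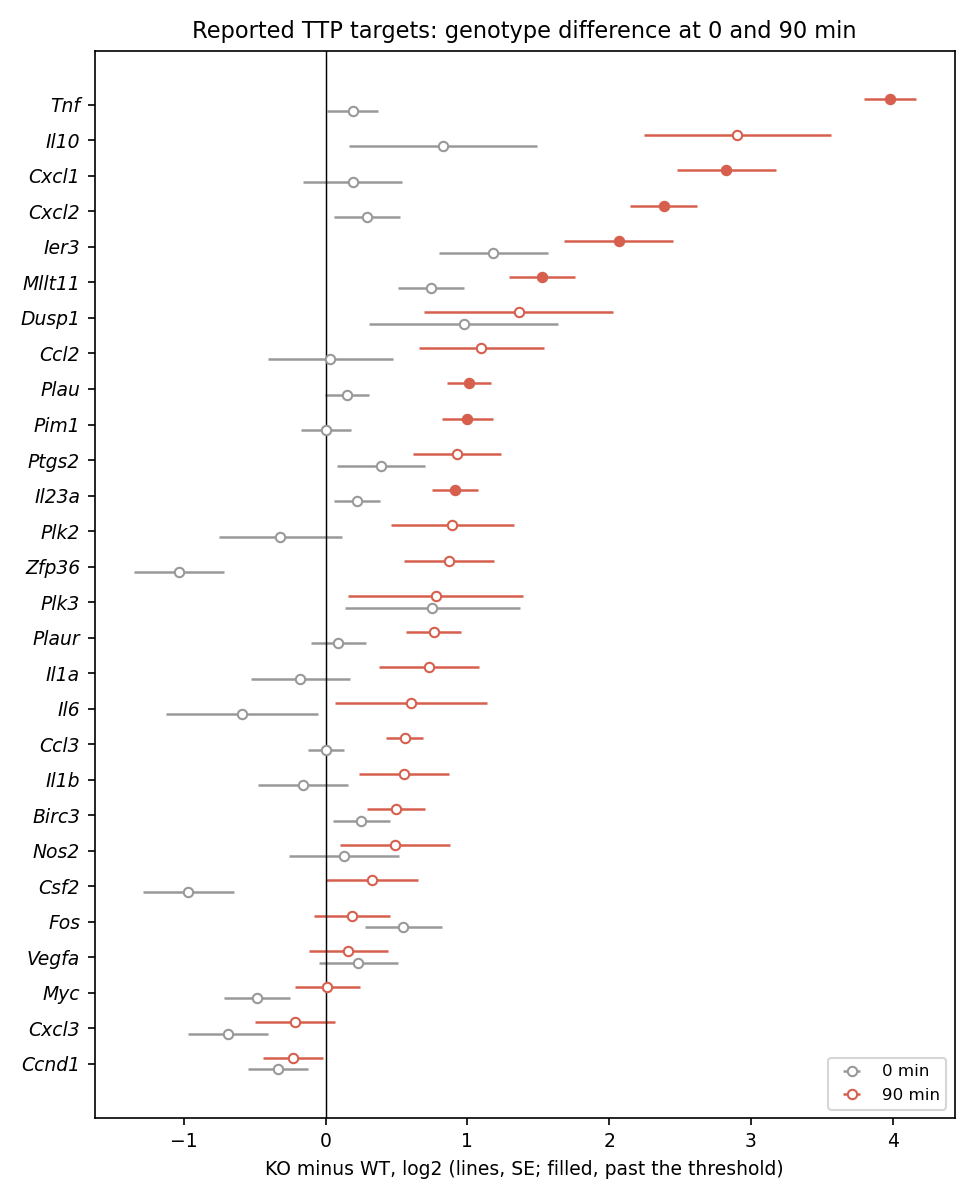
KO minus WT difference in log2 RMA intensity for the 28 tested members of the list of reported TTP targets, at 0 min (grey) and 90 min (red), n = 3 arrays a group; lines are standard errors and filled points passed the threshold at 90 min. Members called at 90 min reach 3.98, while their 0 min points lie near 0 apart from Ier3 at 1.18 and Mllt11 at 0.75.

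Il10 encodes interleukin-10, a cytokine that restrains macrophage activation through its receptor and STAT3. Its 90 min levels were 3.01, 3.12 and 4.15 in WT and 5.72, 6.38 and 6.89 in KO. The KO arrays lay above the WT arrays in every replicate, with a difference of 2.90 ± 0.66 or 7.49-fold (2.85 to 19.7). The adjusted p was 0.139 without the block, 5.21e-06 with it, and 0.000117 with it and without KO replicate 2. WT replicate 3 was the highest WT array at 0 min too, where WT read 5.11, 5.29 and 7.65 and KO read 6.26, 6.53 and 7.74. The share left was 16.6% in WT and 70.1% in KO.

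Il10ra, which encodes the ligand-binding chain of the interleukin-10 receptor, was called: its arrays read 5.18, 5.18 and 5.69 in WT and 6.52, 7.31 and 6.14 in KO. The difference was 1.31 ± 0.23, a 2.47-fold higher level, with an adjusted p of 0.0294. It was 0.45 in replicate 3, which the titles number apart from the others, and 1.74 in replicates 1 and 2. It was 0.98 without KO replicate 2 (adjusted p = 0.0891, and 0.0592 with the block). Of the 12 tested genes of a list of Il10 and its response genes, Il10ra alone was called, and 4 were with the block (Il10, Il10ra, Il4ra and Sbno2). Of these 4, Il10 alone was called with the block and without KO replicate 2. All 12 had a positive difference, with a median of 1.02, and the median was 0.71 without KO replicate 2 and 0.34 at 0 min.

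Among the response genes, Sbno2, which encodes a corepressor induced by interleukin-10, read 5.29, 4.47 and 7.07 in WT and 6.43, 7.42 and 7.76 in KO (1.59 ± 0.56, adjusted p = 0.619, and 0.0226 with the block). Il4ra, the interleukin-4 receptor gene, read 5.99, 5.39 and 8.14 in WT and 7.32, 7.90 and 9.18 in KO (1.63 ± 0.68, adjusted p = 0.788, and 0.00656 with the block). In both genes replicate 3 was high in each genotype, so the groups overlapped while each KO array exceeded the WT array of its number. Il4ra already differed by 1.22 at 0 min. With the block and without KO replicate 2, Sbno2 differed by 1.24 (adjusted p = 0.162) and Il4ra by 1.41 (0.0694). Socs3, a feedback inhibitor of cytokine signalling, read 5.13, 4.17 and 5.07 in WT and 5.28, 7.25 and 5.71 in KO (1.29 ± 0.49, adjusted p = 0.70). KO replicate 2 was the highest array, and without it the Socs3 difference was 0.71. Il10rb, the shared second chain of the receptor, differed by 0.01.

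**Figure D5:**
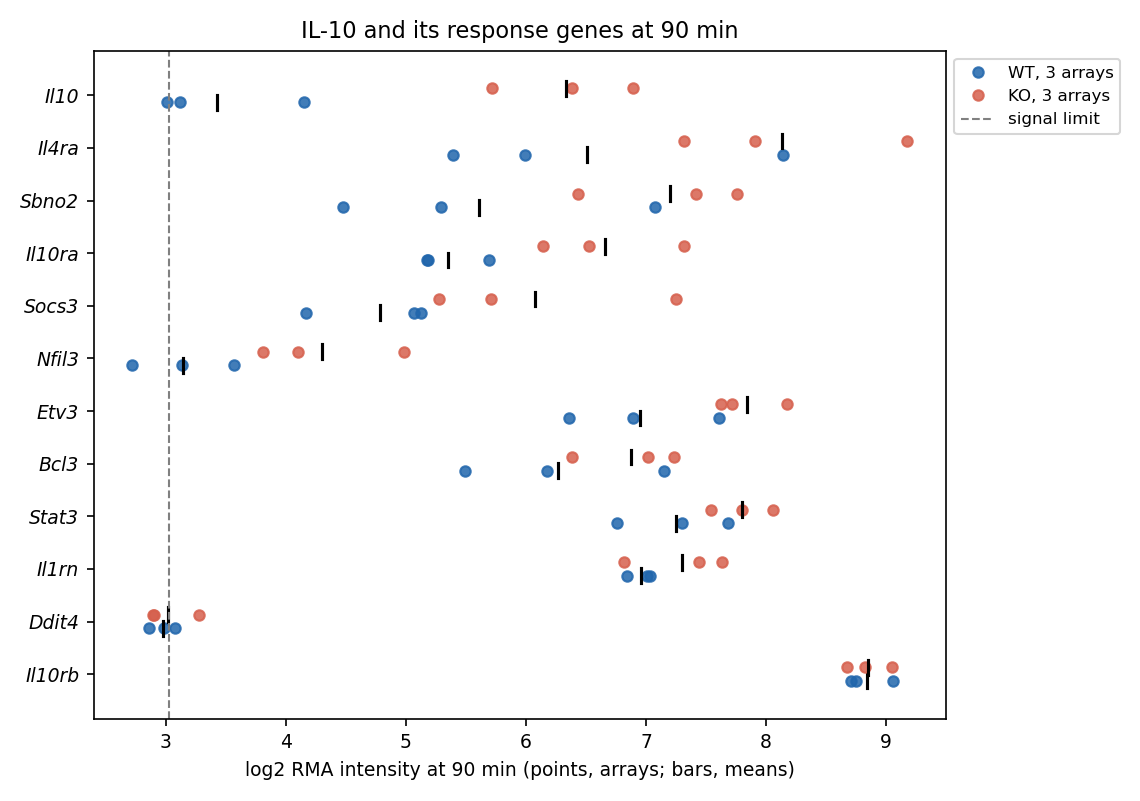
Level of Il10 and 11 further genes of the interleukin-10 list at 90 min, as log2 RMA intensity, with a point for each array, a bar at each group mean and a dashed line at the signal limit. The Il10 groups lie apart by 2.90 between their means, and Il10rb coincides in both genotypes.

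Short-lived mRNAs were also followed as a group. Of the 47 early-falling genes, 6 were higher in KO and none was lower: Tnf, Cxcl2, Tnfsf9, Edn1, Il10ra and Plau. The share of all genes tested that was higher was 0.146%. Without KO replicate 2, Tnf and Cxcl2 were the early-falling genes called. The median difference was 0.33, and it was 0.13 without KO replicate 2. It was 0.06 in replicate 3 and 0.54 in replicates 1 and 2. The median share left was 26.5% in WT and 42.8% in KO, and 7 of the 47 are also in the list of reported targets. Tnfaip3, which encodes the NF-kB inhibitor A20, illustrates the uncalled members: 6.41, 6.32 and 6.55 in WT and 6.69, 8.23 and 6.61 in KO, so replicate 2 alone was clearly above WT. Plk2, a stress-induced kinase gene, read 4.41, 3.75 and 4.40 in WT and 4.87, 6.35 and 4.02 in KO, again with replicate 2 the highest.

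No gene passed in the direction of lower levels in KO, while 2 did without WT replicate 3 and 1 without WT replicate 2. Of the genes described next, Ccl22 alone was called with the block and without KO replicate 2. The smallest p in that direction belonged to Ccl22, the gene of a chemokine that attracts regulatory T cells, at 7.61, 7.46 and 7.37 in WT and 5.85, 6.29 and 4.16 in KO. The groups did not overlap, and the difference was -2.05 ± 0.43 (0.241-fold) with an adjusted p of 0.0817 and 0.0039 with the block. At 0 min it was -2.26 ± 0.43, and WT kept 83.8% and KO 96.6% of the 0 min signal. Ccl17, the gene of a related chemokine, read 6.43, 6.97 and 4.25 in WT and 5.06, 4.53 and 2.68 in KO, a difference of -1.79 ± 0.80 at 90 min and -1.75 at 0 min (adjusted p at 90 min 0.838, and 0.00778 with the block). For these chemokine genes the difference at 90 min was near that already present at 0 min.

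Hmga2, a chromatin architectural gene, read 5.26, 5.04 and 4.79 in WT and 4.46, 4.5 and 3.84 in KO (-0.76 ± 0.18, adjusted p = 0.169, and 0.0186 with the block), with -0.15 at 0 min. Nr4a3, which encodes an inducible nuclear receptor, read 5.37, 5.31 and 5.06 in WT and 4.48, 4.43 and 4.02 in KO (-0.94 ± 0.26, adjusted p = 0.319, and 0.0136 with the block), with -0.79 at 0 min. The other 3 genes lower with the block were Lsp1, AA467197 and Ccnd2, named here after their values were seen.

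Cytokine and chemokine genes outside the neutrophil-attracting group varied. Of 24 tested cytokine and growth factor genes, 4 were higher and none was lower (1 higher without KO replicate 2), with a median of 0.34, and 8 of the 24 are in the target list. None of 16 other chemokine genes was called, with a median of -0.02, and with the block 1 was higher (Ccl2) and 2 were lower (Ccl22 and Ccl17). Cxcl10, an interferon-induced chemokine gene, read 12.18, 12.13 and 11.52 in WT and 12.10, 12.33 and 11.68 in KO, which overlapped.

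The machinery that regulates decay was also looked at. Among 15 genes for proteins that bind AU-rich or other 3' end elements, none was called, and the median was 0.40 at 90 min and 0.29 at 0 min. Among 32 deadenylation and decay genes none was called, and the median was 0.05. With the block Cnot8, a deadenylase subunit gene of the CCR4-NOT complex, was higher: 5.91, 5.91 and 5.88 in WT and 6.59, 6.70 and 6.32 in KO (0.64 ± 0.14, adjusted p = 0.106, and 0.0302 with the block). With the block and without KO replicate 2, Cnot8 differed by 0.52 and was not called (adjusted p = 0.223). The p38 and MAP kinase pathway (17 genes) had a median of 0.13 and the MAP kinase phosphatases (11 genes) of 0.11, with none called. Map3k8, the gene of a kinase that LPS signalling uses to activate ERK, read 5.05, 5.63 and 5.14 in WT and 6.19, 7.37 and 6.17 in KO (1.31 ± 0.29, adjusted p = 0.126, and 0.0446 with the block). KO replicate 2 was its highest array, and with the block and without it the difference was 0.88 (adjusted p = 0.281).

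Signalling lists other than these had few or no called members. None of 19 genes of NF-kB subunits and feedback inhibitors (median 0.14), 7 SOCS family genes (0.52) or 20 Toll-like receptor and adaptor genes (0.12) was called. Of 21 immediate early genes Ier3 was called (median 0.15), with Maff higher and Nr4a3 lower under the block, and of 17 survival and apoptosis genes Pim1 (median -0.07). None of 12 prostaglandin and nitric oxide genes (0.01), 24 interferon-stimulated genes (0.20 at 90 min and 0.25 at 0 min), 14 antigen presentation genes (-0.09), 21 phagocytic and scavenger receptor genes (0.14) or 14 macrophage transcription factor genes (0.31) was called. With the block, Ptgs2 of the prostaglandin genes, Mrc1, Fcgr4 and Mertk of the phagocytic receptors and Runx1 of the transcription factors were higher, and none of these 5 was called once KO replicate 2 was also left out. Cd83, a maturation marker, read 6.83, 6.90 and 6.51 in WT and 6.19, 6.22 and 5.18 in KO (-0.89 ± 0.26, adjusted p = 0.418), and its difference was -1.16 at 0 min.

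Lists of metabolism and housekeeping had medians between -0.14 and 0.14, and some leaned to one sign. The difference was positive in 12.1% of ribosomal protein genes, 20.7% of cell cycle genes and 94.4% of lysosome genes, against 57.5% of all genes tested. In 5 of the 58 ribosomal protein genes the KO arrays lay below the WT arrays without overlap, against 3.25% of all genes. No member was called among 15 cholesterol genes (median 0.07), 14 glycolysis and hypoxia genes (0.06), 11 p53 targets (0.10), 29 cell cycle genes (-0.14), 20 respiratory chain genes (-0.07), 18 lysosome genes (0.14), 11 housekeeping genes (0.01) or 58 ribosomal protein genes (-0.12 at 90 min and -0.26 at 0 min). With the block 1 of them was called, Pfkfb3, which encodes an enzyme that speeds glycolysis (1.45 ± 0.51, adjusted p = 0.636, and 0.000463 with the block, with 1.17 at 0 min). Genes near Zfp36 are of interest because a targeted allele can carry flanking sequence of the strain it was made in. Of 184 tested genes within 10 Mb of Zfp36 none was called, and the median was 0.01. With the block 2 of them were higher, Plaur and Apoe. Whether flanking sequence bears on these genes was not tested. None was called among 175 genes at 10 to 30 Mb or among the 433 farther along that chromosome, and with the block none of the 175 and 4 of the 433 were (3 higher and 1 lower).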

How the data were processed

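The authors measured total RNA on Affymetrix Mouse Gene ST 1.0 arrays and deposited 1 linear intensity per probe set and array, made with RMA in Affymetrix Expression Console, per the submitters' processing notes; no version or setting is given in the sources used here. Each array's median intensity lay between 7.41 and 8.19.

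Here log2 of the intensity was taken with no offset and no further normalization. Of 25138 probe sets, GEO's platform annotation gave 21039 a single gene symbol and 1485 several, and did not list 2614. Symbols were updated through RefSeq (84 kept an older one), and for 874 genes with several probe sets the brightest was used. The signal limit was the median, over single-symbol probe sets, of the mean over all arrays (log2 3.03, intensity 8.16). Genes whose highest mean among the 6 groups lay below it were not tested.

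limma 3.58.1 in R 4.3.3 (lmFit and eBayes, two-sided, Benjamini-Hochberg adjustment at 0.05 over 10258 genes) was fitted to all 18 arrays as 6 groups of 3, so that every group shares the estimate of the spread. Percentages left are 2 to the power of the difference between mean log2 levels at 90 and 0 min, with 95% intervals from the fit. The fit was tested on simulated data. The simulated noise was independent between arrays, so that test does not cover deviations that same-numbered arrays share. The labels do not say that a replicate number marks a shared culture. Deviations from the group means of same-numbered 90 min arrays of both genotypes correlated across genes at 0.18, 0.20 and 0.65. On that basis same-numbered arrays were treated as pairs, and blocked values are given where they change a call. Differently numbered arrays were not compared in this way, and a deviation shared by both arrays of replicate 3 can also raise the other values. The correlations thus do not show that replicates 1 and 2 are paired. Replicate 3 comes from arrays numbered 330 to 335 in the titles and replicates 1 and 2 from 459 to 470; this numbering was used as another block.

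Genes were selected for naming by rule: Zfp36, all genes past the threshold, and the genes with the smallest p in a direction with fewer than 10 calls. Every tested reported TTP target and the called or most different members of the other lists were also selected. Not all selected genes are described in the text. Among those left out are Arhgap6 and Ccn5, with small p in the direction of lower levels in KO. Members and lists were chosen with earlier results of these data known. Alternatives were other blocks, sample subsets, offsets, filters, probe set means, centring, quantile normalization, an intensity trend, array weights and leaving out each array. AU-rich motifs were not counted, since 3' end sequences were not used here.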

Additional observations from a re-analysis of the deposited data

Results flagged for a closer look

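The genotype difference of Tnf was larger at 90 min than at 0 min by 3.79 (log2, limma adjusted p = 3.76e-07). For Cxcl2 it was larger by 2.09 (adjusted p = 0.0375). In each gene every KO array was above every WT array at both times.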

How the results depend on the processing

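Of 35 settings, the 15 genes kept a positive difference in each that tested them, and Tnf and Cxcl1 stayed called in all 35 and Cxcl2 in 34. Calls of B4galt3, Eno2, Mllt11 and Plau held in 17, 16, 16 and 15 of the 18 single-array omissions, and those of Ier3, Tnfsf9, Tmem199 and Edn1 in 6, 5, 3 and 2. The count of genes higher in KO at 90 min was 73 with the replicate block, by which same-numbered arrays are paired, and 7 were lower; it changed no call of the 15. At 0 min this block gave 19 higher and 13 lower. A block of the title numbering gave 83 higher and 7 lower at 90 min and 23 and 13 at 0 min. Replicates 1 and 2 alone gave 90 and 12 at 90 min, 840 and 101 at 0 min, and 5 positive and 2 negative differences of differences. The 90 min arrays alone gave 2 higher, 27 and 2 lower with the replicate block, and 42 and 4 with the title numbering block, which was chosen after seeing the data. The replicate block without KO replicate 2, also chosen after seeing the data, gave 17 and 2 at 90 min and 17 and 11 at 0 min. A signal limit of 5 left 6 higher among 5570 genes tested. Centring on housekeeping genes gave 7, quantile normalization 9, and array weights, whose estimation stopped before it converged, 820 higher and 517 lower. The cause of these differences was not tested. Leaving out single arrays gave 3 to 19 higher and 0 to 2 lower at 90 min, 0 to 738 higher and 0 to 77 lower at 0 min, and 1 to 2 positive and 0 to 1 negative differences of differences. Besides the arrays named in the report, the count at 90 min fell to 9 without KO replicate 3, to 7 without replicate 1 of WT or KO at 45 min or KO replicate 2 of 0 min, to 8 without WT replicate 2 of 0 min and to 9 without WT replicate 2 of 45 min. At 90 min 1 gene was lower without KO replicate 3 of 0 min, and at 0 min 1 was lower without KO replicate 3 of 90 min. Centring on ribosomal protein genes moved the median of all genes from 0.04 to 0.14. The planned count of AU-rich motifs was not run. Signal near the background limits the dimmer genes.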

Other observations

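Among the 65 genes called at 90 min only with the replicate block, some had differed between genotypes before transcription was stopped, and 14 of the 80 genes called with the block at 90 min were also called with it at 0 min. The genes named here were chosen after their values were seen. They include Mrc1, the mannose receptor gene, at 6.33, 6.55 and 6.23 in WT and 7.55, 7.06 and 8.06 in KO at 90 min, where the difference was 1.18 ± 0.29 after 1.43 at 0 min. Apoe, which encodes an apolipoprotein that macrophages secrete, read 9.69, 9.28 and 9.31 in WT and 10.78, 10.47 and 10.09 in KO. Its difference was 1.02 ± 0.24 after 0.96, and the gene lies within 10 Mb of Zfp36. Pdpn, the gene of the membrane protein podoplanin, differed by 1.01 ± 0.31 after 0.89. With the block and without KO replicate 2, Apoe and Pdpn stayed called, and Mrc1 differed by 1.35 (adjusted p = 0.0694).

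Others had no such difference at 0 min. Il27, which encodes a subunit of interleukin-27, read 7.50, 7.65 and 6.93 in WT and 7.53, 7.56 and 6.66 in KO at 0 min, and 7.03, 6.80 and 5.68 in WT and 7.76, 8.22 and 6.72 in KO at 90 min (1.06 ± 0.46, adjusted p = 0.808, and 0.00413 with the block). Replicate 3 was the lowest in both genotypes, so the groups overlapped. Maff, a small Maf transcription factor gene, read 4.19, 4.05 and 4.27 in WT and 4.80, 4.85 and 5.57 in KO at 90 min (0.90 ± 0.18, adjusted p = 0.0789, and 0.0232 with the block) after 0.02 at 0 min. With the block and without KO replicate 2, Maff differed by 1.03 and Il27 by 0.92, both with an adjusted p of 0.054.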
